A study of Oryza sativa with 6 samples.

Results

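The genes described here are 8 rice genes of nitrate uptake and ammonium assimilation, read from arrays of root RNA. Those of nitrate uptake are the transporter gene OsNRT2.3 and the genes OsNAR2.1 and OsNAR2.2 for partner proteins of such transporters. The others are the glutamine synthetase genes OsGLN1;2 and OsGLN2, and the glutamate dehydrogenase genes OsGDH1, OsGDH2 and OsGDH3. All 8 were chosen by name, with earlier results of these data known. A probe set counted if the platform annotation gave it exactly 1 gene and that gene's symbol or RefSeq synonym was one of these names. All 8 names were found among 14662 genes, each with 1 probe set of the 41770 on the array, so no choice between probe sets was needed. The roots came from plants of Oryza sativa cultivar Swarna MTU7029, 3 weeks old, given a suspension of the basidiomycete yeast Rhodotorula mucilaginosa JGTA-S1. Control roots, labelled as having no treatment, were taken at 0 h, and yeast-treated roots at 6 h and at 24 h, with 2 arrays at each time and 6 in all. The labels name no mutant, transgene or other agent. Whether both arrays of 1 time share plants or a pool is not given either, and the p-values therefore speak only of the spread among these 6 samples, part of which may be technical. Each treated time is set against 0 h and not against untreated roots of the same hour, so the yeast and the elapsed time cannot be told apart.

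Rice roots take up nitrogen as nitrate and as ammonium. Many high-affinity nitrate carriers of the NRT2 family need a small partner protein, NAR2, to work at the plasma membrane. Glutamine synthetase joins ammonium to glutamate and is the main entry of ammonium into amino acids, with cytosolic GS1 enzymes in roots and a plastid GS2 enzyme best known from the re-use of photorespiratory ammonium in leaves. Glutamate dehydrogenase catalyses a reversible reaction between ammonium, 2-oxoglutarate and glutamate, and in plants is known mostly for breaking glutamate down. Roots are a mixture of cells, so fewer cells of a type and less RNA per cell cannot be told apart in these values.

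The files hold summarised signals on a scale read as log2, on which a difference of 1 is a doubling. Array medians were alike, at 2.79 to 2.93, but signals were spread more widely after the yeast (SD over probe sets 1.62 to 1.82) than on the control arrays (1.46 and 1.5). The arrays' number limits the precision. Of the root markers looked up, 8 were measured, and the silicon exporter gene Lsi2 (8.78 to 9.17 over the 6 arrays), the phosphate exporter gene OsPHO1;2 (6.79 to 7.83), the iron transporter gene OsIRT1 (5.47 to 6.58) and the endodermal regulator gene OsSCR1 (4.67 to 6.00) lay in the upper part of the signals of every array. The root patterning gene OsSHR1 read 3.76 to 4.77 and its relative OsSHR2 2.09 to 3.06. The stem cell niche gene QHB was dim (1.81 to 2.16). OsWOX5 (1.96 to 3.24) varied more, between percentiles 12.9 and 60.6 of the probe sets of each array.

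**Figure D1:**
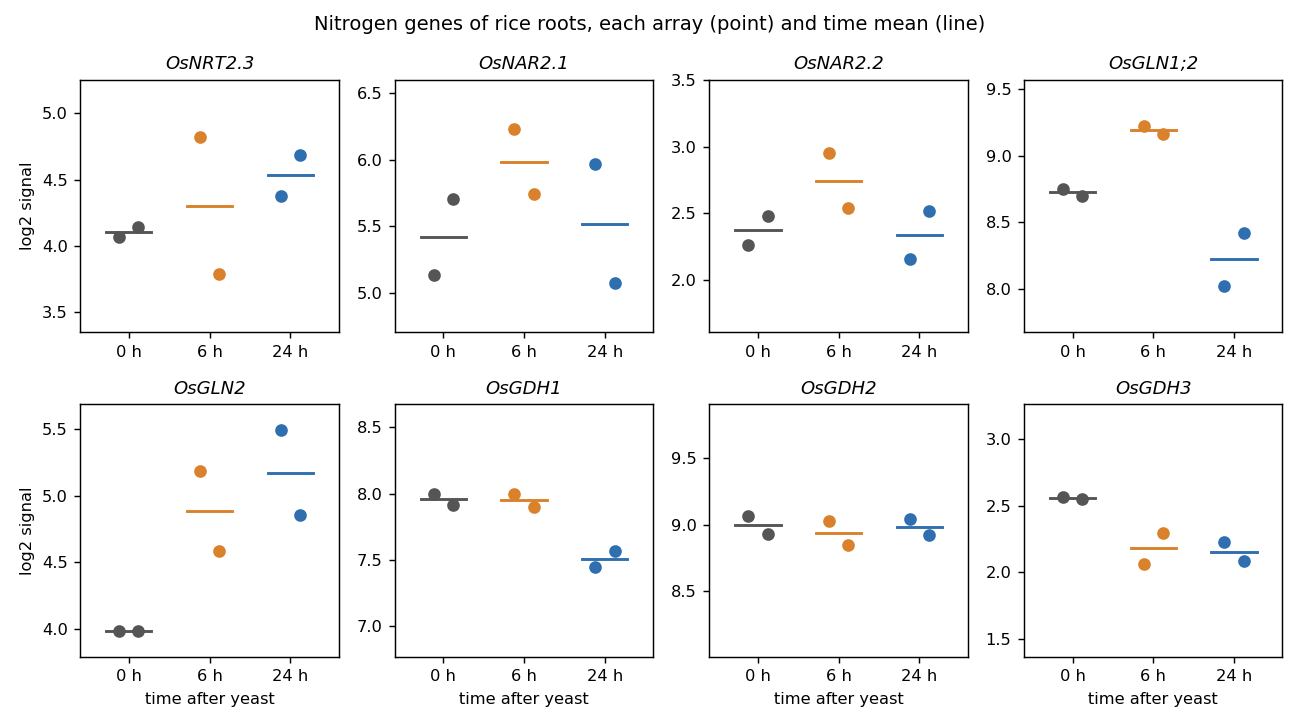
Log2 signal (vertical axis) of the 8 nitrogen genes at 0 h, 6 h and 24 h (horizontal axis); each point is 1 array and each line the mean of the 2 arrays of a time. All panels span the same log2 range but start at different signals: OsGLN1;2 is highest at 6 h and lowest at 24 h, OsGLN2 is lowest at 0 h, and OsGDH2 stays between 8.84 and 9.07.

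None of the 8 genes passed in any comparison between times. With limma, fitted to all 41770 probe sets and called at an adjusted p under 0.05, 0 of 8 passed at 6 h against 0 h, where 1.53% of all probe sets and 2.2% of genes did. At 24 h against 0 h it was 0 of 8, against 2.21% of probe sets and 3.08% of genes. At 24 h against 6 h it was 0 of 8 and 0% of probe sets. At an unadjusted p under 0.05, 1 of 8 was called in each comparison, against 19.2%, 21.5% and 2.63% of probe sets. The first was OsGLN2 at 6 h, the next OsGLN2 at 24 h, both higher than at 0 h, and the last OsGLN1;2, lower at 24 h than at 6 h. The smallest log2 difference called among all probe sets was 1.48 at 6 h and 1.40 at 24 h, and the members' differences ran from -0.38 to 0.90 and from -0.51 to 1.19.

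The nitrate carrier gene OsNRT2.3, whose product is known in rice for carrying nitrate towards the shoot, read 4.07 and 4.15 in control roots, 4.82 and 3.79 at 6 h, then 4.38 and 4.69 at 24 h. The 6 h arrays stood on both sides of the controls, while both 24 h arrays lay above both controls. The time means, from lowest to highest, were 4.11 at 0 h, 4.30 at 6 h and 4.53 at 24 h, and no neighbours in that order differed beyond their spread. The log2 difference from 0 h was 0.19 ± 0.39 at 6 h and 0.42 ± 0.39 at 24 h (moderated SE from limma, n = 2 arrays per time). Such SEs, here and below, pool the spread within all times and draw it towards that of all probe sets. The limma adjusted p of these differences was 0.820 and 0.555. The sign was not settled by the scale: after quantile normalization the differences were -0.19 and -0.11, and after cyclic loess -0.28 and -0.20.

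OsNAR2.1 is the partner that several rice NRT2 carriers are known to need. It read 5.13 and 5.70 at 0 h, 6.23 and 5.74 at 6 h, and 5.96 and 5.08 at 24 h. The 6 h arrays lay above both controls, one of them only just, and the 24 h arrays covered the whole range of the controls. The difference was 0.57 ± 0.40 at 6 h (1.48-fold, 95% interval -0.36 to 1.5 on the log2 scale, limma adjusted p = 0.478) and 0.10 ± 0.40 at 24 h (0.904). After quantile normalization these became 0.0037 and -0.55, and after cyclic loess -0.0074 and -0.56, so that no direction can be given for this gene.

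OsNAR2.2, its less studied paralog, was dim, between percentiles 25.6 and 53.1 of the probe sets of each array. It read 2.26 and 2.48 at 0 h, 2.95 and 2.54 at 6 h, and 2.16 and 2.52 at 24 h. Both 6 h arrays stood above all 4 others, with gaps that were small beside the difference between the 6 h arrays themselves. The difference from 0 h was 0.38 ± 0.32 at 6 h (limma adjusted p = 0.552) and -0.034 ± 0.32 at 24 h (0.963). Quantile normalization gave 0.56 at 6 h and 0.22 at 24 h, and cyclic loess 0.59 and 0.18. The 6 h arrays thus read higher than the controls for both partner genes as deposited, but only for OsNAR2.2 in both of these other scalings. How far a signal of this size lies above background is unknown.

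OsGLN1;2 encodes the cytosolic glutamine synthetase known as the main one of rice roots, and it read 8.75 and 8.70 at 0 h, 9.22 and 9.16 at 6 h, and 8.02 and 8.42 at 24 h. The 3 times did not overlap: both 6 h arrays lay above both controls, and both 24 h arrays lay below them. This order, looked for after the values were seen, occurred in 0.405% of all probe sets and 0.443% of genes, and in 1 of the 8 genes. The reverse order would have drawn notice as well and is not counted in these shares. The difference from 0 h was 0.47 ± 0.30 at 6 h (1.38-fold higher, 95% interval -0.22 to 1.15) and -0.51 ± 0.30 at 24 h (1.42-fold lower, -1.19 to 0.18), with limma adjusted p = 0.428 and 0.359. Between 6 h and 24 h the signal differed by -0.97 ± 0.30, a 1.96-fold lower level at 24 h with a 95% interval of -1.66 to -0.29. The unadjusted p of that last difference was 0.0114 and the limma adjusted p was 1, in a comparison where no probe set passed.

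The order of the times for OsGLN1;2 did not hang on the scale. After quantile normalization the controls read 8.87 and 8.90, the 6 h arrays 9.04 and 9.22, and the 24 h arrays 7.92 and 8.37, and the times were again apart after cyclic loess. The difference at 6 h shrank to 0.24 and 0.19 in these scalings, while the one between both treated times stayed at -0.98 and -0.95. Leaving out each array in turn gave -1.17 to -0.77 for the latter.

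OsGLN2, the plastid glutamine synthetase, had the widest range of time means among the 8 genes. It read 3.98 and 3.99 at 0 h, 5.18 and 4.58 at 6 h, and 5.50 and 4.85 at 24 h. All 4 treated arrays lay above both controls, and the 6 h and 24 h arrays overlapped. The difference from 0 h was 0.90 ± 0.36 at 6 h (1.87-fold, 95% interval 0.08 to 1.72) and 1.19 ± 0.36 at 24 h (2.29-fold, 0.37 to 2.01), with limma adjusted p = 0.223 and 0.116. These intervals are not corrected for the number of probe sets tested. The SD between its control arrays was 0.0042, against a median of 0.32 at 0 h over all probe sets. The size depended on the scale: quantile normalization gave 0.52 at 6 h and 0.66 at 24 h, and cyclic loess 0.35 and 0.51, with all 4 treated arrays still above both controls. The smallest adjusted p over 15 alternatives was 0.167 at 6 h and 0.0937 at 24 h.

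Beside it, 4 marker genes of green shoot tissue, of light harvesting and carbon fixation, were read on the same arrays. Their mean log2 signal was 3.45 and 4.16 at 0 h, 4.17 and 3.28 at 6 h, and 4.26 and 3.47 at 24 h. The times overlapped in this mean, but its members differed. CAB1R lay between percentiles 79.3 and 93.6 of the probe sets of each array, so in the upper part of the signals like the brighter root markers. CAB2R ran from percentile 52.9 to 89.7, RBCS from 33.3 to 65.6 and RCABP89 from 18.4 to 68.3. At 0 h, 6 h and 24 h the means were 5.74, 4.68 and 5.67 for CAB1R, 4.39, 3.64 and 3.99 for CAB2R, 2.21, 3.28 and 2.69 for RCABP89, and 2.87, 3.31 and 3.10 for RBCS. Both 6 h arrays lay below the controls for CAB1R (4.77 and 4.59 against 5.61 and 5.88) and above them for RCABP89 (3.85 and 2.71 against 2.09 and 2.34). The mean of the 8 root markers was 4.79 and 4.55 at 0 h. It was 5.27 and 5.10 at 6 h, and 4.99 and 5.06 at 24 h. This mean was higher on all 4 treated arrays, as the signal of OsGLN2 was, but its members differed too. All 4 treated arrays lay above both controls for OsPHO1;2, OsSCR1, OsSHR2 and QHB. For Lsi2, OsWOX5, OsIRT1 and OsSHR1 treated and control arrays overlapped. The 24 h means of Lsi2 and OsWOX5 were below their 0 h means. The part of either tissue in the OsGLN2 difference was not tested. OsGLN1;3, a further cytosolic glutamine synthetase gene, differed from 0 h by 0.19 ± 0.37 at 6 h and 0.42 ± 0.37 at 24 h (limma adjusted p = 0.817 and 0.541).

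**Figure D2:**
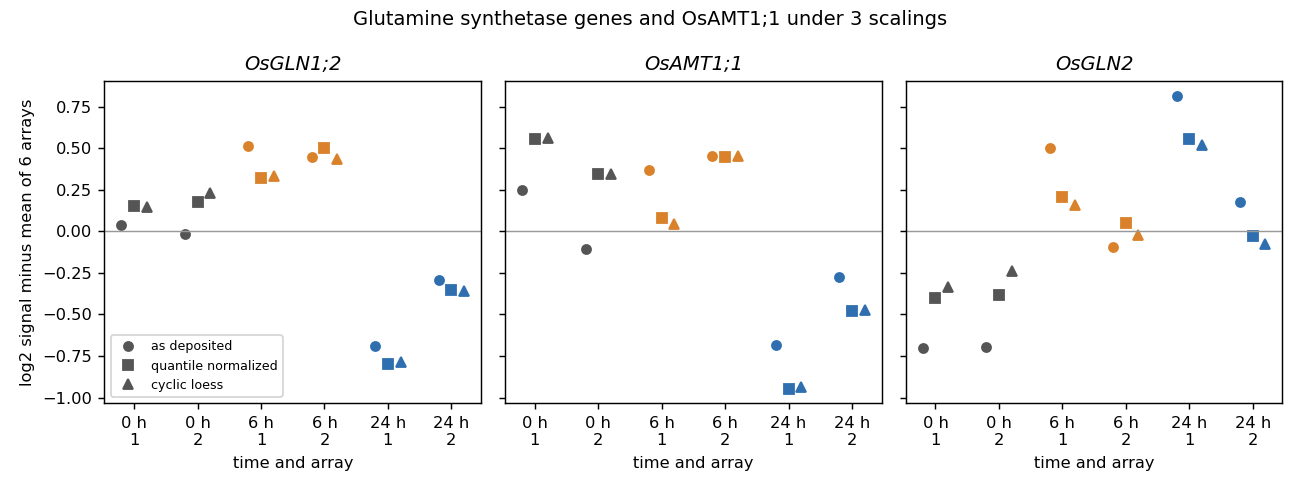
Log2 signal minus the gene's mean over the 6 arrays (vertical axis) on each array (horizontal axis) for OsGLN1;2, OsAMT1;1 and OsGLN2, as deposited (circles), after quantile normalization (squares) and after cyclic loess (triangles); colours mark the time. The 24 h arrays of OsGLN1;2 and OsAMT1;1 are the lowest in each scaling, and the control arrays of OsGLN2 are the lowest.

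OsGDH1 encodes a glutamate dehydrogenase, an enzyme of mitochondria in plants, and it read 8.0 and 7.92 at 0 h, 8.0 and 7.90 at 6 h, and 7.44 and 7.57 at 24 h. The 0 h and 6 h arrays overlapped almost fully and both 24 h arrays lay below all of them. The difference was -0.0077 ± 0.28 at 6 h (95% interval -0.66 to 0.65, limma adjusted p = 0.992). At 24 h it was -0.45 ± 0.28 from 0 h (1.37-fold lower, 95% interval -1.10 to 0.20, adjusted p = 0.387) and -0.44 ± 0.28 from 6 h (adjusted p = 1). For the 24 h difference from 0 h, quantile normalization gave -0.75 and cyclic loess -0.84. In both of these the 6 h arrays also lay below the controls, by -0.25 and -0.39 in their means.

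OsGDH2, its paralog, was the steadiest of the 8, reading 9.07 and 8.93 at 0 h, 9.03 and 8.84 at 6 h, and 9.05 and 8.92 at 24 h. The 3 times overlapped, and the whole range over the 6 arrays was 0.22 on the log2 scale. The differences from 0 h were -0.064 ± 0.29 at 6 h and -0.017 ± 0.29 at 24 h, with 95% intervals of -0.73 to 0.60 and -0.68 to 0.65. These intervals leave room for a difference in either direction and do not show that the level was equal. After quantile normalization the treated arrays lay below both controls, at -0.32 and -0.24 in their means.

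OsGDH3, the third dehydrogenase gene, gave a dim signal, between percentiles 28.7 and 37.5 of all probe sets. It read 2.56 and 2.55 at 0 h, 2.07 and 2.3 at 6 h, and 2.23 and 2.08 at 24 h. All 4 treated arrays lay below both controls, and the 6 h and 24 h arrays overlapped. The difference from 0 h was -0.38 ± 0.29 at 6 h and -0.40 ± 0.29 at 24 h (limma adjusted p = 0.513 and 0.445), and it was -0.16 and -0.15 after quantile normalization. The lower quartile of the array signals also read lower after the yeast, at 1.91 to 2.13 against 2.25 and 2.27 on the control arrays. Its part in the result was not tested.

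**Figure D3:**
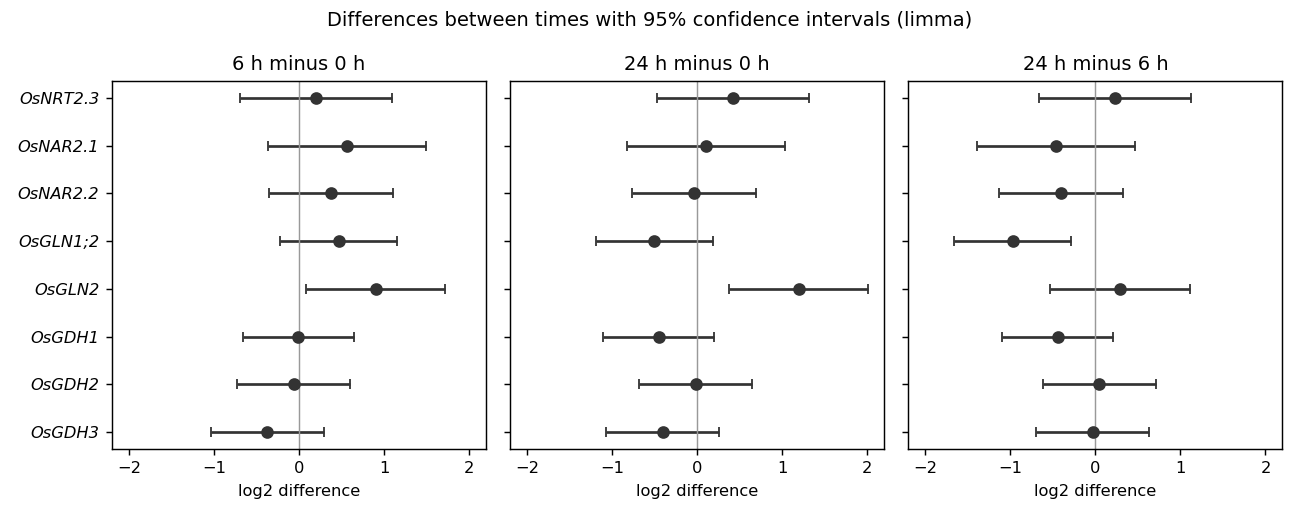
Log2 differences (horizontal axis, later minus earlier time) of the 8 genes with 95% confidence intervals from limma, in 3 comparisons. The intervals of OsGLN2 at 6 h and 24 h and of OsGLN1;2 between 24 h and 6 h lie to one side of 0, and those of the other genes include 0 in each comparison.

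Counted over the members, 5 of 8 had both 6 h arrays on one side of both controls, against 48.9% of the 14662 genes. Of these, 4 were above (34.3% of genes) and 1 below (14.6%). At 24 h it was again 5 of 8, against 58.8%, with 2 above (42.6%) and 3 below (16.3%). Between 24 h and 6 h it was 3 of 8, each lower at 24 h, against 33.9% of genes in either direction and 14.6% lower. With 8 genes these shares are no result about the members. The median log2 difference of the 8 genes was 0.28 at 6 h and -0.025 at 24 h, and -0.22 from 6 h to 24 h. Over the 14662 genes it was 0.20, 0.26 and 0.049, and over all probe sets -0.060, -0.039 and 0.017. Quantile normalization moved the median of all genes to 0.10 at both times, and relative to it the members' median was -0.18 at 6 h and -0.30 at 24 h, where as deposited it had been 0.086 and -0.29. OsGLN2 lay above the gene median by 0.70 at 6 h and 0.93 at 24 h as deposited, and by 0.41 and 0.55 after quantile normalization. OsGLN1;2 lay above it by 0.27 and 0.14 at 6 h and below it at 24 h, at -0.77 and -0.84.

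The pattern of OsGLN1;2 and OsGLN2, whose time means ranged most widely, was compared with 1076 named genes over the 6 arrays, after each gene was centred and divided by its SD. The gene nearest to OsGLN1;2 was OsAMT1;1, a high-affinity ammonium transporter gene of roots, with a root mean square difference of 0.25 SD. Next came OsSAPK1, a protein kinase gene of the SnRK2 family, and OsFH15, a formin gene, both at 0.38. OsGDH1 ranked 7th at 0.47 and OsNAR2.2 ranked 26th at 0.64. The other members ranked were further off, OsNAR2.1 at rank 229, OsGDH3 at 491, OsNRT2.3 at 674 and OsGLN2 at 824. The genes nearest to OsGLN2 were OsOEP80, named for a plastid envelope protein, OsTLP3, a tubby-like protein gene, and OsC3H23, a zinc finger gene, all at 0.13. Of the 6 other members ranked, OsNRT2.3 was closest to OsGLN2, at rank 485, and OsGLN1;2 had rank 865. OsGDH2 was not ranked, since its SD over the arrays was 0.088.

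OsAMT1;1 read 6.35 and 6.00 at 0 h, 6.47 and 6.56 at 6 h, and 5.42 and 5.83 at 24 h. As for OsGLN1;2, both 6 h arrays lay above the controls and both 24 h arrays below them. OsAMT1;1 was picked for its likeness to OsGLN1;2 over these same arrays, so the shared order is no separate finding. The difference from 0 h was 0.34 ± 0.31 at 6 h and -0.55 ± 0.31 at 24 h (limma adjusted p = 0.588 and 0.341), and that between 24 h and 6 h was -0.89 ± 0.31 (adjusted p = 1). Its 6 h arrays no longer stood apart after quantile normalization or cyclic loess, where the differences at 6 h were -0.19 and -0.20, while both 24 h arrays stayed below the controls, at -1.16 in both.

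Among 20 further genes of nitrogen uptake, transport and regulation, 1 rose and 0 fell at 6 h, 0 passed at 24 h against 0 h, and 0 passed between 24 h and 6 h. Over all probe sets the shares that passed were 1.53%, 2.21% and 0%. Unadjusted, 5, 7 and 3 of the 20 had a p under 0.05, against 19.2%, 21.5% and 2.63% of all probe sets. Most probe sets have no gene, and at the adjusted threshold genes were called more often, at 2.2% at 6 h and 3.08% at 24 h. With 20 genes these shares are no result about them. The gene that rose was BAT1, an amino acid carrier gene, at 1.84 ± 0.35 (limma adjusted p = 0.0498). That call held in 5 of 15 alternatives, with adjusted p from 0.0252 to 0.234. It was lost under quantile normalization, cyclic loess, array weights, the fit to 4 arrays and the replicate block. It was also lost without the second control array or any 1 of the 4 treated arrays. Without either 24 h array the fit at 6 h is the same as that to 4 arrays, so these alternatives are not all separate checks. The other carrier, the proline transporter gene OsproT, differed by 1.37 ± 0.34 at 6 h and 1.32 ± 0.34 at 24 h (adjusted p = 0.0899 and 0.0893). Without the first control array 2 of the 20 passed at 24 h, BAT1 (limma adjusted p = 0.0358) and OsproT (0.0498).

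The 8 ammonium transporter genes did not pass, and 5 of them read higher at 6 h and 4 at 24 h, with medians of 0.39 and 0.40. OsAMT3;2 differed by 0.87 ± 0.36 at 6 h and 1.35 ± 0.36 at 24 h (limma adjusted p = 0.238 and 0.0937), and OsAMT2;2, a dim signal, by 0.45 ± 0.32 and 0.88 ± 0.32 (0.478 and 0.167). Of 9 regulators 0 passed and 6 read higher at each time. NLP3, of the NIN-like factors that act in nitrate signalling, read 4.61 and 5.01 at 0 h, 6.51 and 6.13 at 6 h, and 5.72 and 5.62 at 24 h. Its difference of 1.51 ± 0.31 at 6 h had an adjusted p = 0.0596, from 0.0405 to 0.238 over 15 alternatives, 3 of which passed. Its relative OsNLP2 differed by 1.14 ± 0.29 at 6 h and 0.38 ± 0.29 at 24 h (0.0913 and 0.470). The MADS-box gene OsMADS27, known from nitrate effects on rice roots, differed by 0.76 ± 0.38 and 1.28 ± 0.38 (0.316 and 0.113).

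**Figure D4:**
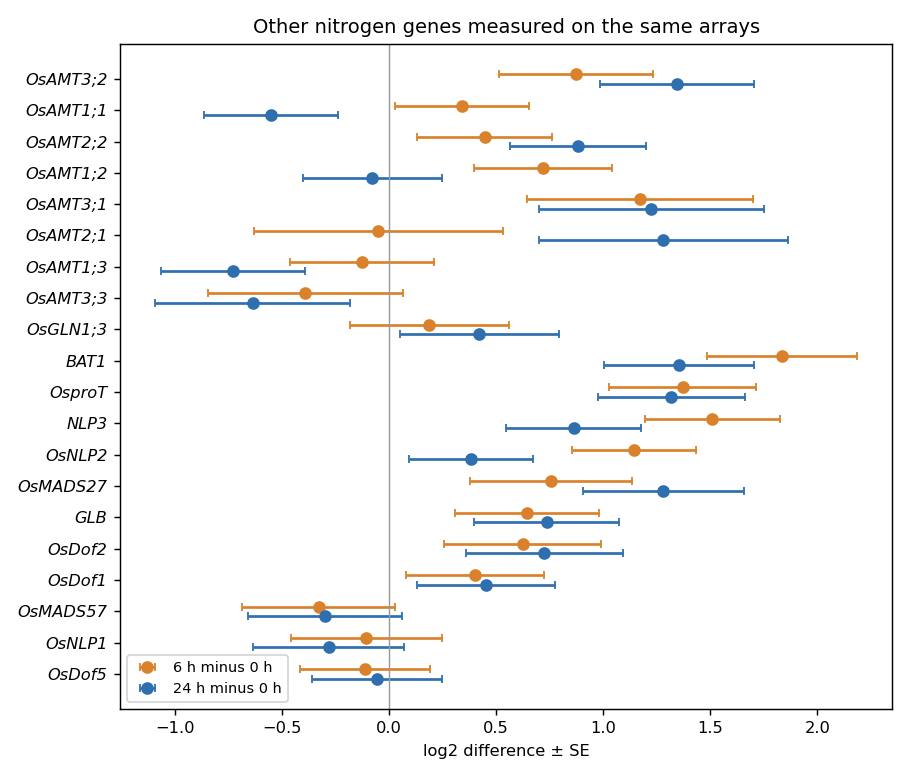
Log2 difference from 0 h with its SE (horizontal axis) at 6 h (orange) and 24 h (blue) for 20 further nitrogen genes: 8 ammonium transporters, OsGLN1;3, 2 amino acid carriers and 9 regulators, from top to bottom. BAT1 at 6 h, at 1.84, is the only value that passed.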

How the data were processed

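Root RNA was hybridised to 6 Affymetrix arrays after labelling with the WT Terminal Labeling kit, per the labels' protocols. The table that the authors deposited holds 1 summarised log signal per probe set, taken as log2 because of its range. The submitters' processing notes name Affymetrix Expression Console. Not given in the sources used here: its version, summarisation, background correction, normalization and log base. No detection call was used.

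Names came from the platform annotation and from RefSeq synonyms (assembly ASM3414082v1, no coordinates printed): 15299 probe sets had 1 gene, 436 several and 26035 none. The members and lists were chosen with earlier results of these data known. Wider lists were matched by symbol, and 2 matches were discarded because the symbol is used for another protein. Nitrate and nitrite reductases, glutamate synthases, asparagine synthetases, enzymes of carbon skeleton supply and further nitrate transporters had 0 matches and are not analysed here.

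One mean per time was fitted with limma 3.58.1 in R 4.3.3 to all 41770 probe sets (residual degrees of freedom 3, prior 5.08). Benjamini-Hochberg adjustment covered all of them, and passed, rose and fell refer to an adjusted p under 0.05. The script was tested on simulated data. All members are named, as are up to 3 genes per wider list with the smallest unadjusted p in any comparison, every gene that passed, and the 3 genes nearest in pattern to the 2 members with the widest range of time means. That ranking took genes with a symbol or a name starting with Os and an SD of at least 0.2. Root and green shoot markers served as a check of the tissue. Plots and naming used Python 3.11.15. Alternatives were other scalings (quantile, cyclic loess, median centring), a filter on the dimmest 33.3% of probe sets, other variance models (trend with robust eBayes, array weights), a fit to 4 arrays, a replicate block, means over a gene's probe sets, and omission of single arrays.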

Additional observations from a re-analysis of the deposited data

Results flagged for a closer look

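The cytosolic glutamine synthetase gene OsGLN1;2 stood out because its 2 arrays at 6 h both lay above the controls and its 2 arrays at 24 h both lay below them, so that the differences from 0 h, 0.47 and -0.51 on the log2 scale, had opposite signs. The difference between the times, 24 h minus 6 h, was -0.97 ± 0.30 (SE). It was tested and did not pass, with limma adjusted p = 1 and a smallest adjusted p of 0.472 over 15 alternatives. The 6 h and 24 h differences from 0 h share the control arrays.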

How the results depend on the processing

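In each of the 3 comparisons 0 of the members passed in all 15 alternatives, with 7 members tested where the dimmest 33.3% of probe sets were left out, since OsGDH3 fell out. Of 119 values of single members per comparison, 10, 14 and 9 changed sign, none of them called. Many of the 119 could not change. The filter, the variance models, the fit to 4 arrays, the block and the means over probe sets left the members' differences unchanged. So did omitting an array of a time outside the comparison. The members' median at 6 h went from 0.28 to -0.077 after quantile normalization and -0.066 after cyclic loess. The median at 24 h went from -0.025 to -0.219 after cyclic loess and to 0.0512 after median centring. Between 24 h and 6 h it went from -0.22 to -0.409 without the dimmest probe sets. Leaving out each array in turn gave medians of 0.0544 to 0.541 at 6 h, -0.192 to -0.0051 at 24 h and -0.39 to 0.0119 between the times, and 0 members passed in each of these fits. Why these values moved was not tested, apart from the filter, which takes 1 member away. The probe sets past the threshold numbered 641 at 6 h, 81 after quantile normalization, 119 after cyclic loess, 1146 after median centring, 1062 with an intensity trend, 187 with array weights, 81 with 4 arrays and 384 with the replicate block. At 24 h they numbered 925, and 24, 52, 1502 and 0 after quantile normalization, after cyclic loess, with array weights and with 4 arrays, and 570 with the block. Without 1 array they ran from 0 to 2249 at 6 h and from 0 to 2793 at 24 h, highest without the first control array. Between 24 h and 6 h they were 0 throughout. With the replicate number as a block 0 members passed in every comparison. The median at 6 h stayed 0.28, as it had to, since a balanced block changes the spread and not the differences. The labels do not say that equal numbers mark shared plants, and the deviations of equally numbered arrays correlated across probe sets at 0.047, 0.033 and 0.155. With 2 arrays per time, differences of the size seen in these genes could not be told from no difference, and for OsNAR2.2 and OsGDH3 the distance of the signal from background is unknown.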
